A study of Bos taurus with 6 samples.

Results

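Kinesins are ATP-driven motor proteins that move along microtubules. One broad set, the transport kinesins, carries vesicles, organelles, messenger RNA or ciliary cargo through the cell body, neurites and cilia, and another, the mitotic kinesins, builds the spindle, moves chromosomes and completes cell division. In chondrocytes, which secrete large amounts of matrix and each carry a primary cilium, the heterotrimeric kinesin-2 that feeds the cilium is the member known best, from its need in mouse growth plate cartilage.

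The kinesin genes described here were all rows of the authors' table whose symbol was KIF followed by a number and any letter, or KIFC1, KIFC2 or KIFC3. This rule gave 40 genes of the 27607 in the table. By textbook role, 14 were transport kinesins, 13 were mitotic kinesins and 13 had other roles, such as control of microtubule length, Hedgehog signalling or motile cilia. The rule does not match CENPE, a mitotic kinesin with a symbol of another form, which is described below with other genes of mitosis. Of the 40 genes, 35 had a mean of at least 10 normalized counts over all libraries and were tested (13 transport, 12 mitotic and 10 other). KIF1A and KIF5C reached that mean only through the Dox+ libraries.

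The RNA came from cattle chondrocytes of the deep zone, the part of articular cartilage that lies on the bone. All 6 cultures carried a lentivirus from which doxycycline turns on bovine CREB5, a leucine zipper transcription factor related to CREB, and had been selected in G418 at 500 µg/ml for 11 days. They were then kept for 3 days on low attachment plates in medium with 10% FBS, 20 ng/ml of TGFb2 and 100 ng/ml of TGFa, without doxycycline (Dox- 1, 2 and 3) or with it, at 1 µg/ml by the treatment protocol (Dox+ 1, 2 and 3), although the series' design text gives the same number in mg/ml. The cells came from 3 separately collected knees. No culture that received doxycycline without the CREB5 virus was analysed here, so effects of doxycycline itself and of CREB5 cannot be told apart.

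The libraries held 20063379 to 122366790 reads, and 3 reads, the limit that a count of 0 allows, were worth between 1.32 normalized counts (Dox+ 2) and 6.98 (Dox+ 3). CREB5 stood at 510, 308 and 330 normalized counts in Dox- 1, 2 and 3 and at 20935, 12413 and 21964 in Dox+ 1, 2 and 3, so each library lay on the side its label gives. The chondrocyte genes COL2A1, ACAN, SOX9, COL9A1, COL11A1, MATN3, COMP and PRG4 were all above the filter, and of these PRG4 and MATN3 rose while COL9A1 and ACAN fell. COL2A1 was lower in each same-numbered pair, at 18352, 57510 and 47987 against 8779, 22991 and 11650, and had a limma adjusted p of 0.22, or of 0.0023 when the number was fitted as a block. Values below are normalized counts in the order 1, 2 and 3 of each group, fold changes are differences of mean log2(normalized count + 1), and a gene is said to have risen or fallen where limma's adjusted p was under 0.05.

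Doxycycline was followed by a rise of 2 kinesin genes, KIF1A and KIF5C, both transport motors best known from neurons. No kinesin fell. Thus 2 of 35 tested members were higher and 0 lower, against 2.52% of all 13180 genes tested called higher and 0.357% called lower (4 of the 35 had an unadjusted limma p under 0.05, all 4 higher, against 7.02% of all genes higher and 3.57% lower). Since same-numbered libraries deviated together, least clearly for number 3, the fit was repeated with the number as a block. It called 4 of 35 kinesins higher and 0 lower, where 4.86% of all genes were called higher and 1.65% lower, and added KIF3C and KIF21B; p-values from that fit are marked as blocked below. On the recovered reads, edgeR called 2 kinesins higher (2.31% of all genes higher, 0.296% lower), edgeR with the block 3 (4.48% and 1.44%) and DESeq2 3 (4.12% and 1.21%), and each called 0 kinesins lower.

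KIF1A (ENSBTAG00000011538), a kinesin-3 that carries synaptic vesicle precursors and dense core vesicles along axons, changed more than any other member tested. Its level was 11.7, 0 and 2.45 in the Dox- libraries, which rests on 23 reads in all, 19 of them in Dox- 1. In the Dox+ libraries it was 2279, 1100 and 2395. The lowest Dox+ library thus lay far above the highest Dox- library. The ratio of the group means was 410, from 4.70 ± 6.14 to 1925 ± 717 (SD, n = 3), and the log2 fold change was 9.01 (SE 0.82, 95% interval 7.15 to 10.9, limma adjusted p = 0.00052). KIF1A passed in each of the 6 fits with 1 library left out, with limma adjusted p from 2.3e-05 to 0.0095. In the authors' deposited table its log2 fold change was 9.04.

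KIF5C (ENSBTAG00000018125), a neuron-enriched heavy chain of kinesin-1, had 1 read over the Dox- libraries, in Dox- 1, and 55 reads over the Dox+ libraries. Its normalized counts were 0.613, 0 and 0 without doxycycline and 30.5, 10.6 and 30.2 with it. The groups did not overlap, but the gene stayed at a low count even in Dox+ cells. The ratio of pooled reads was 66.0, with a 95% exact counting interval of 11.4 to 2652, and the limma adjusted p was 0.030 (blocked 0.0077). The call was lost when 1 library was removed, with an adjusted p of 0.083 for Dox- 2, 0.094 for Dox- 3, 0.13 for Dox+ 1 and 0.16 for Dox+ 3, and also at a pseudocount of 5 (0.051).

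The other kinesin-1 heavy chains did not pass. KIF5B, the heavy chain made in nearly all tissues, was at 6638, 3450 and 2889 in Dox- cells and 7977, 4058 and 7369 in Dox+ cells. The groups overlapped, and each Dox+ library was above the Dox- library of the same number, by most in pair 3 (log2 ratios of 0.27, 0.23 and 1.35). Its log2 fold change was 0.62 (95% interval -0.19 to 1.43, limma adjusted p = 0.67, blocked 0.20). KIF5A, the other neuronal heavy chain, was below the filter, with 13 reads in Dox- and 8 in Dox+ cells and a pooled ratio of 0.738 with an exact counting interval of 0.265 to 1.92.

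**Figure D1:**
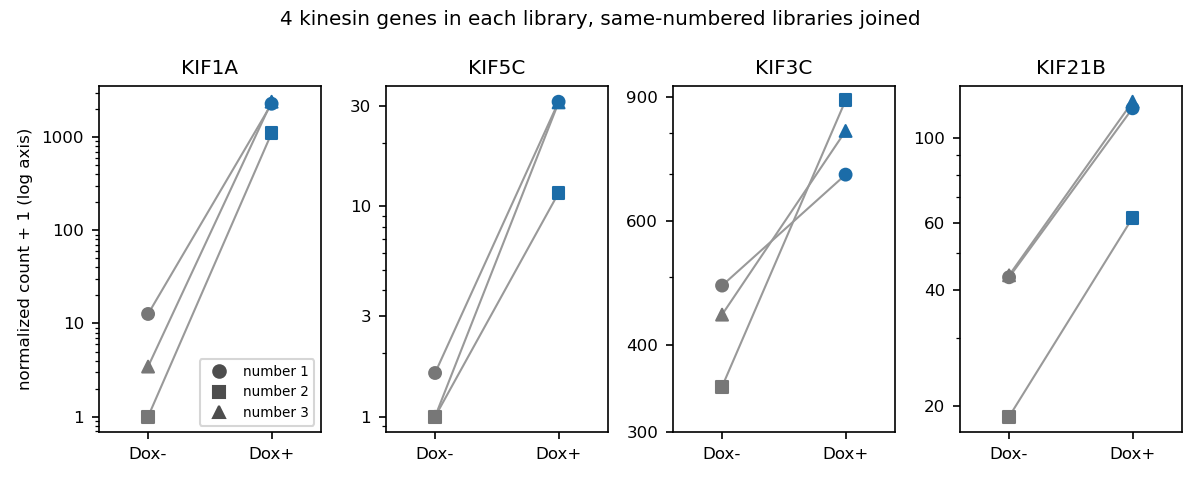
Normalized count + 1 (log axis, ranges differ between panels) of KIF1A, KIF5C, KIF3C and KIF21B in each library, with a line joining the Dox- and Dox+ libraries of the same number (circle 1, square 2, triangle 3). Every line goes up. The square, Dox+ 2, is the lowest Dox+ library for KIF1A (1100), KIF5C (10.6) and KIF21B (60.9) but the highest for KIF3C (890).

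In kinesin-2, KIF3A and KIF3B form the motor that, with the accessory subunit KIFAP3, drives transport into the cilium, and KIF3C can replace KIF3B beside KIF3A and is enriched in neural tissue. KIF3C (ENSBTAG00000019138) was at 484, 348 and 440 in Dox- cells and at 697, 890 and 805 in Dox+ cells, so the groups did not overlap. The difference was 0.92 on the log2 scale (SE 0.23, 95% interval 0.40 to 1.43), with a limma adjusted p of 0.090, blocked 0.042. DESeq2 also called it (adjusted p = 0.0079), while edgeR did not (adjusted p = 0.089, blocked 0.053). When both libraries numbered 1, or both numbered 2, were removed from the blocked fit, the log2 fold change was 1.11 and 0.70 and the limma adjusted p was 0.060 and 0.16. Such a fit leaves 1 residual degree of freedom per gene, so its p-value leans on the spread shared over all genes.

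KIF3B was nearly flat, at 1788, 1955 and 1947 in Dox- and 1763, 1916 and 1979 in Dox+ cells. Its 95% interval, 0.77-fold to 1.29-fold, was the narrowest of the transport kinesins and leaves out a change of the size estimated for KIF3C. KIF3A stood at 1004, 967 and 1786 in Dox- and 1081, 1365 and 1086 in Dox+ cells, with groups that overlapped and a log2 fold change of -0.04 (limma adjusted p = 0.98) whose sign turned with the library left out. KIF17, the homodimeric kinesin-2 of dendrites and cilia, had 24.5, 32.5 and 55.0 against 60.9, 40.6 and 69.8 and did not pass (limma adjusted p = 0.78).

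The kinesin-3 genes other than KIF1A did not pass. KIF1C, which carries cargo between the Golgi and the cell edge, had 5008, 6638 and 6316 normalized counts in Dox- and 4948, 6928 and 6051 in Dox+ cells, and its interval ran from 0.73-fold to 1.36-fold. The groups overlapped almost fully, and no change of the size seen for KIF1A lay within that interval. KIF13A and KIF13B, motors of endosomal and membrane protein traffic, and KIF16B, a motor of early endosomes, had log2 fold changes of -0.01, 0.26 and 0.31 (limma adjusted p from 0.78 to 0.99). KIF16B was the gene among them whose groups did not overlap, at 413, 419 and 458 against 525, 471 and 607.

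KIFC2 and KIFC3 are kinesin-14 motors that move toward the minus end of microtubules. KIFC2 was at 625, 747 and 667 in Dox- and 630, 850 and 505 in Dox+ cells, and KIFC3 ranged from 287 to 639 over the 6 libraries. Both pairs of groups overlapped (limma adjusted p = 0.96 and 0.99). Over the 13 tested transport kinesins, 2 rose, 0 fell and 11 did not pass, with a median log2 fold change of 0.26. Leaving KIF1A and KIF5C aside, the median of the other 11 was 0.04, against -0.0036 over all genes tested.

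**Figure D2:**
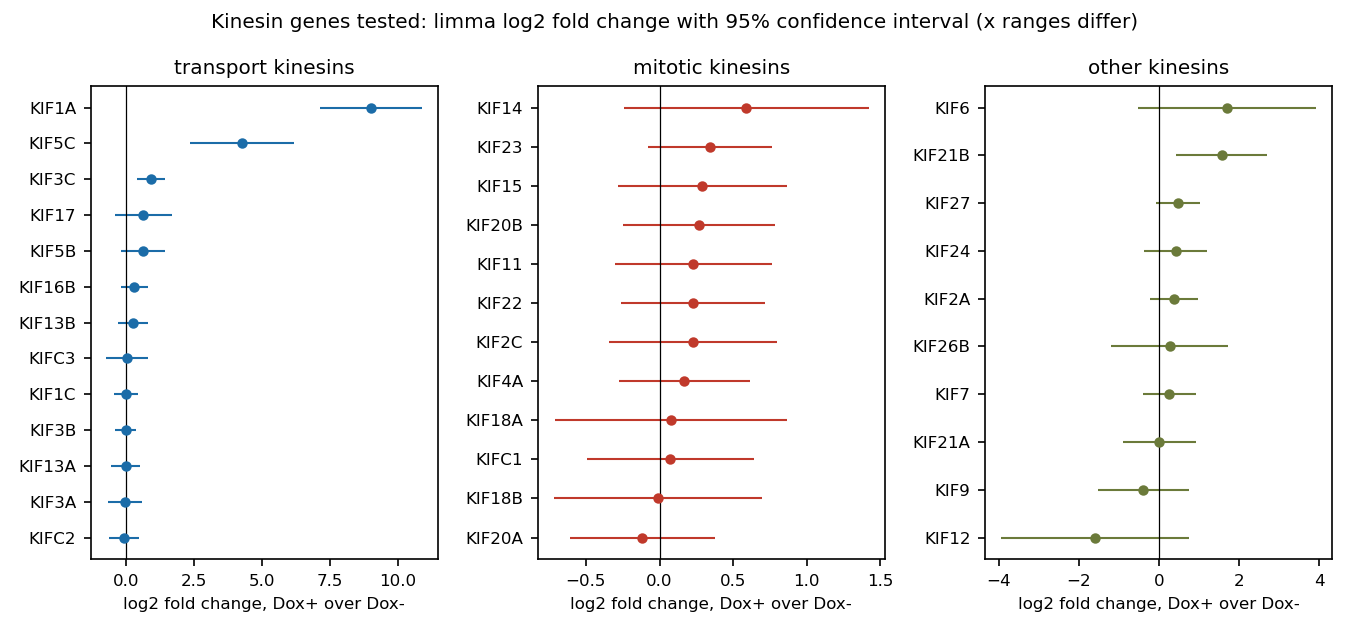
Limma log2 fold change of Dox+ over Dox- (points) with its 95% confidence interval (lines) for the 35 tested kinesins, in panels by role whose x ranges differ. KIF1A (9.01) and KIF5C (4.26) stand far from the rest of the transport kinesins, while each of the 12 mitotic kinesins has an interval that includes 0.

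No mitotic kinesin passed: of 12 tested, 0 rose, 0 fell and 12 did not pass, and edgeR, DESeq2 and the fits with the block also called 0. Over all genes tested, limma called 2.52% higher and 0.357% lower, so 0 of 12 lies near that share. At an unadjusted limma p under 0.05 the count was 0 as well, against 7.02% of all genes higher and 3.57% lower. Log2 fold changes ran from -0.12 (KIF20A) to 0.59 (KIF14), with a median of 0.23, and 10 of 12 were above 0, where 49.5% of all genes were; KIF18B, near 0, was also above it under total scaling, in edgeR and in DESeq2. With 1 library left out, KIFC1 and KIF18A each reached a log2 fold change of -0.14. The widest upper limit was 2.68-fold, for KIF14. The next was 1.83-fold, for KIF18A, so larger increases lay outside the intervals of the 11 members other than KIF14. In bulk samples a different number of dividing cells and a different amount of RNA per dividing cell cannot be told apart.

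KIF23, a subunit of the centralspindlin complex that bundles the spindle midzone, was at 1437, 1488 and 1517 in Dox- and at 1746, 1685 and 2249 in Dox+ cells. It was the single mitotic kinesin whose groups did not overlap, yet it did not pass (log2 fold change 0.34, limma adjusted p = 0.63). KIF20A, which brings the chromosomal passenger complex to the midzone, was at 1280, 1581 and 1893 in Dox- and 1604, 1207 and 1553 in Dox+ cells, with a 95% interval of 0.66-fold to 1.30-fold. KIF20B, also of cytokinesis, was at 1152, 1154 and 1613 against 1625, 1252 and 1837.

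KIF14, which acts with citron kinase in cytokinesis, was at 207, 178 and 181 in Dox- cells and at 374, 162 and 377 in Dox+ cells. Dox+ 1 and 3 lay above every Dox- library and Dox+ 2 below all of them. KIF11, the motor that separates the spindle poles, was at 1259, 1288 and 904 against 1450, 1052 and 1551, again with Dox+ 1 and 3 above every Dox- library but with Dox+ 2 inside the Dox- range. KIF18B, a motor at microtubule plus ends, was at 210, 271 and 316 against 242, 200 and 360, with a log2 fold change of -0.01. The remaining tested members were KIF2C, a microtubule depolymerase of centromeres, the chromosome-bound motors KIF4A and KIF22, and the spindle motors KIF15, KIF18A and KIFC1. Their log2 fold changes lay between 0.07 (KIFC1) and 0.29 (KIF15).

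Within same-numbered pairs the mitotic kinesins shifted together, and not the same way in each pair. All 12 were higher in Dox+ 1 than in Dox- 1 (median log2 ratio 0.36), 3 of 12 were higher in pair 2 (median -0.12) and 11 of 12 in pair 3 (median 0.19), while the medians over all genes were 0.0024, -0.00098 and -0.011. The summed count of the mitotic kinesins was 9069, 10573 and 11170 in Dox- and 11675, 10205 and 13248 in Dox+ cells, so the groups overlapped. Leaving out Dox+ 2 moved the median log2 fold change from 0.23 to 0.39, leaving out Dox+ 3 to 0.13 and leaving out Dox- 1 to 0.15. The transport kinesins did not share this split: 10, 10 and 10 of 13 were higher in pairs 1, 2 and 3, not always the same genes, with medians of 0.19, 0.19 and 0.34, and 7 of 13 were higher in all 3 pairs. The difference between the roles in this respect was not tested.

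**Figure D3:**
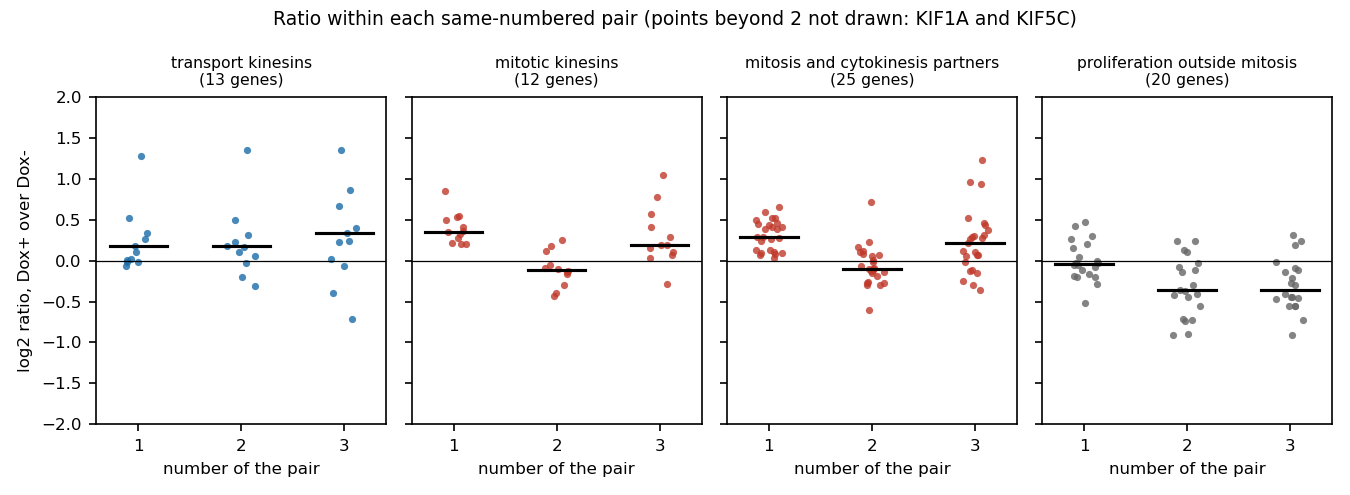
Log2 ratio of Dox+ to Dox- within each same-numbered pair for each tested gene (points) and the median (bar), for transport and mitotic kinesins and for the genes of mitosis and of proliferation outside mitosis; KIF1A and KIF5C lie beyond the axis and are not drawn but count in the median. Mitotic kinesins and the genes of mitosis sit mostly above 0 in pairs 1 and 3 and mostly below 0 in pair 2.

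Genes of mitosis and cytokinesis with symbols outside the kinesin rule were also mostly higher in pairs 1 and 3 and mostly lower in pair 2. Among them was CENPE, itself a kinesin motor, at 1480, 1352 and 1798 against 2038, 1436 and 2172 (limma adjusted p = 0.82). Of 25 genes of mitosis and cytokinesis tested, 0 passed in either direction, and 25, 9 and 18 of them were higher in pairs 1, 2 and 3 (median log2 fold change 0.19). Those with the smallest p were CDK1, the kinase that drives entry into mitosis, at 784, 679 and 503 against 1132, 597 and 1186 (limma adjusted p = 0.68), and the spindle protein NUSAP1 (adjusted p = 0.72). A further list, named proliferation outside mitosis, held mostly genes of DNA replication and cell cycle entry. It was mixed, since MKI67, TOP2A, CCNA2, FOXM1 and MYBL2 also act in or near mitosis. CDKN1A, an inhibitor of the cell cycle, was in it as well and counts among the lower genes. It was at 24903, 33666 and 23891 against 17432, 31939 and 17501 (log2 fold change -0.35). Of the 20 tested, 0 passed, 16 had a log2 fold change below 0, 4 above, and the median was -0.18. In pairs 1, 2 and 3, 7, 4 and 3 of them were higher, and 11 were lower in all 3 pairs, against 19% of all genes. The difference from the mitosis list was not tested. E2F1, a transcription factor of S phase entry, was at 404, 501 and 637 against 332, 341 and 337 (adjusted p = 0.43), and MCM5, of the replicative helicase, had an adjusted p of 0.44.

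Among the 10 tested kinesins with other roles, 0 passed without the block and 1 was higher with it. That gene was KIF21B (ENSBTAG00000047274), a kinesin-4 that limits microtubule growth and is enriched in neurons and lymphocytes. It was at 42.3, 17.8 and 42.8 in Dox- cells and 118, 60.9 and 123 in Dox+ cells, so the groups did not overlap, and the log2 ratios in the 3 pairs lay close together, between 1.46 and 1.72. The log2 fold change was 1.56 (SE 0.50, 95% interval 0.43 to 2.70, limma adjusted p = 0.21, blocked 0.025). Removing both libraries numbered 1 from the blocked fit, which leaves 1 residual degree of freedom per gene, gave a log2 fold change of 1.61 and a limma adjusted p of 0.12. EdgeR gave 0.25, blocked 0.031, and DESeq2 0.087. In the authors' deposited table KIF21B and KIF3C had adjusted p-values of 0.014 and 0.0089. That table called 4 kinesins higher and 0 lower, where it called 5.24% of all genes higher and 2.05% lower.

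KIF21A, the close relative of KIF21B, was at 233, 352 and 610 in Dox- and 256, 510 and 391 in Dox+ cells and had a log2 fold change of 0.01 (limma adjusted p = 0.9986). KIF7, the ciliary kinesin of Hedgehog signalling, was at 386, 691 and 543 against 487, 655 and 779. KIF27, related to KIF7, had groups that did not overlap, at 863, 741 and 509 against 997, 964 and 898, and a log2 fold change of 0.47 (95% interval -0.08 to 1.01, adjusted p = 0.59). KIF2A, a microtubule depolymerase, was at 1494, 1136 and 834 against 1738, 1122 and 1565 (adjusted p = 0.78).

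KIF6, a kinesin of motile cilia, varied widely within each group, with 5.52, 28.1 and 6.73 in Dox- and 8.46, 42.8 and 119 in Dox+ cells. It was higher in each of the 3 pairs, by a log2 ratio of 0.54, 0.59 and 3.95, without passing (limma adjusted p = 0.67, blocked 0.26). KIF9, its relative in class kinesin-9, was at 89.5, 29.6 and 71.5 against 54.2, 40.6 and 37.2 (adjusted p = 0.89), and KIF12 had 11.0, 20.7 and 11.6 against 13.5, 7.06 and 0 (adjusted p = 0.73). KIF24, a depolymerase of centrioles, and KIF26B, an atypical kinesin, had log2 fold changes of 0.41 and 0.26 (adjusted p = 0.83 and 0.95). Below the filter stood KIF5A, KIF19, KIF25 and KIF26A, each with 3 to 13 reads per group, and KIF2B, a mitotic kinesin with no read in any library.

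**Figure D4:**
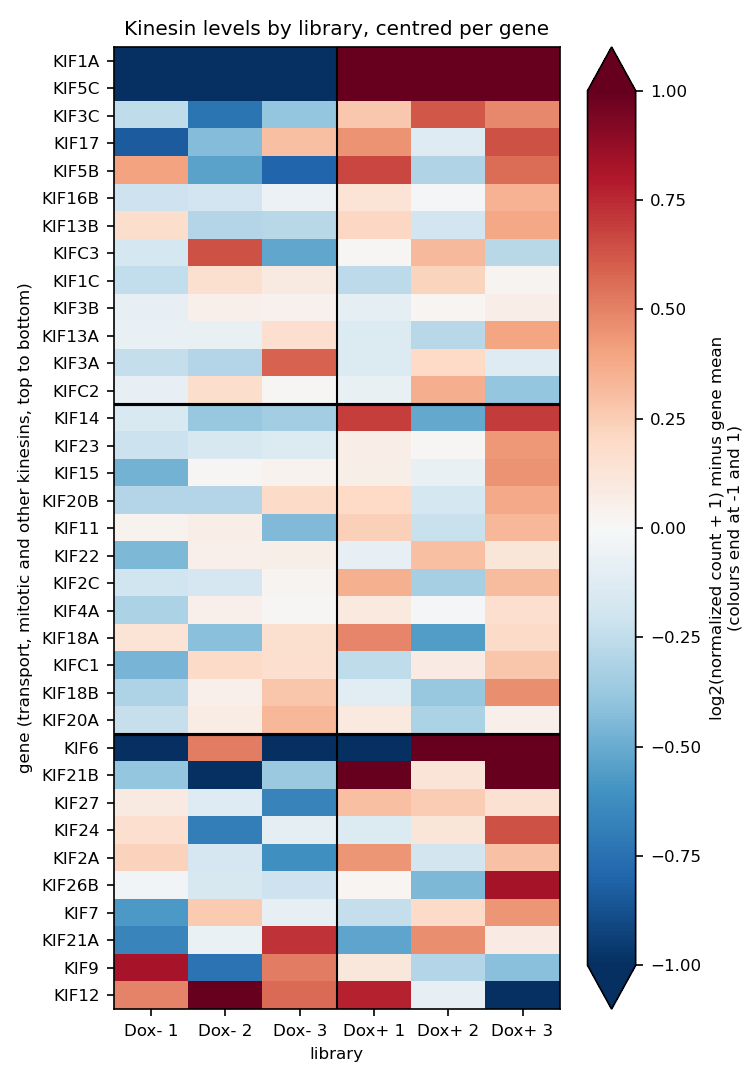
Log2(normalized count + 1) of the 35 tested kinesins in each library, centred on each gene's mean over the 6 libraries (rows; red above, blue below, colours end at -1 and 1), with transport, mitotic and other kinesins from top to bottom. Rows of KIF1A and KIF5C split fully between Dox- and Dox+, and most mitotic rows are highest in Dox+ 1 or Dox+ 3.

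Without a test, 7 of the 35 kinesins had groups that did not overlap, all with Dox+ higher (KIF1A, KIF5C, KIF3C, KIF16B, KIF23, KIF21B and KIF27), and 0 had the reverse, where 8.88% of all genes tested had Dox+ above and 6.29% below. In 13 of 35 each of the 3 pairs was higher, against 19.5% of all genes, and in 0 each was lower, against 19.0%. The summed count of all 40 kinesins was 30480, 30401 and 30495 in Dox- and 37620, 33360 and 40874 in Dox+ cells. The Dox+ libraries thus lay above the Dox- libraries, and without KIF1A the transport kinesins alone summed to 17088 ± 846 in Dox- and 19763 ± 1288 in Dox+ cells (SD, n = 3). Most of that difference lay in KIF5B, which did not pass, and in KIF3C: without these 3 genes the transport sum was 12338 ± 1222 in Dox- and 12498 ± 1226 in Dox+ cells.

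Dox+ 2, the deepest library, also had the lowest CREB5 of the Dox+ group, 12413 against 20935 and 21964. KIF1A, KIF5C, KIF21B and the sum of the mitotic kinesins were lowest in that library as well, among Dox+ libraries, and KIF3C was highest. The part of the CREB5 level, of depth and of the knee in these differences was not tested.

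Partners of transport kinesins were read beside the shares of all genes tested. Limma called 2.52% of those higher and 0.357% lower without the block, and 4.86% and 1.65% with it. Of 18 tested light chains and adaptors, 0 passed without the block and 1 was higher with it (median log2 fold change 0.02). This was MAPK8IP1, the scaffold JIP1 that binds kinesin light chains, at 391, 632 and 582 against 968, 2165 and 984 (limma adjusted p = 0.13, blocked 0.0079). KIFAP3, the accessory subunit of kinesin-2, was next by p, at 3935 ± 945 and 2847 ± 237 (n = 3, adjusted p = 0.54). In the 22 tested genes of dynein, the motor that moves the opposite way, and its activator dynactin, 0 passed with or without the block. The smallest p belonged to the adaptors BICD1 and BICD2 (adjusted p = 0.64 and 0.67), and the median was 0.03. In 4 of the 22 (BICD1, BICD2, NDEL1 and DYNC1LI1) Dox+ lay above Dox- without overlap, and in 0 below, against 8.88% and 6.29% of all genes tested.

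Microtubule genes gave 1 call without the block. MAP2, which binds microtubules in dendrites and is known to limit kinesin-1 there, rose 10.6-fold, from 124, 237 and 135 to 2088, 1317 and 1723 (limma adjusted p = 0.00052), and the other 14 tested microtubule-associated proteins did not pass. Below the filter, MAP7 was lower without overlap, at 7.36, 19.2 and 8.56 against 0, 2.65 and 2.33. MAP6, also below it, was higher without overlap, at 0, 0 and 1.22 against 5.08, 3.09 and 41.9. For MAP7, 3 reads were worth 6.98 in Dox+ 3, near its 7.36 in Dox- 1. For MAP6, a count of 0 in Dox- 2 allows up to 4.44, above its 3.09 in Dox+ 2. Counting error thus leaves the lack of overlap uncertain for both genes. Of 13 tubulins, 0 passed without the block and 2 were higher with it. These were TUBA4A, at 206 ± 74.4 and 484 ± 79.9 (n = 3, adjusted p = 0.097, blocked 0.032), and TUBB4A (adjusted p = 0.33, blocked 0.021). The median of the tubulins was -0.10. Dox+ lay below Dox- without overlap in 2 (TUBB2A and TUBB2B, limma adjusted p = 0.40 and 0.38) and above in 2 (TUBA4A and TUBB3). Of all genes tested, 6.29% lay below and 8.88% above. In 19 tested genes of transport within the cilium 0 passed. IFT88 was at 570, 679 and 676 against 371, 450 and 463 (adjusted p = 0.33), without overlap and lower in Dox+ cells, and WDR35 had an adjusted p of 0.46. IFT22 was also lower without overlap (limma adjusted p = 0.63), so 2 of the 19 lay below without overlap and 0 above.

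Of the cargo genes of KIF1A, meaning components of synaptic and dense core vesicles, 15 were tested, 1 rose and 0 fell (median -0.13). Log2 fold changes were above 0 in 5 of them and below 0 in 10. SCG2, secretogranin II of dense core vesicles, went from 19.0, 13.3 and 12.2 to 638, 209 and 398 normalized counts, a 24.2-fold rise (limma adjusted p = 0.00097). Dox+ 2 was again the lowest Dox+ library. SYN1, of synaptic vesicles, was lower without overlap, at 146, 143 and 168 against 86.3, 86.9 and 79.1, and did not pass (limma adjusted p = 0.28). SYT1, a calcium sensor of such vesicles, was below the filter, at 0 in each Dox- library and 8.46, 3.09 and 6.98 in the Dox+ libraries. A count of 0 in Dox- 2 allows up to 4.44, above the 3.09 of Dox+ 2. Lists were described by counts beside the share of all genes called. That share was 2.52% higher and 0.357% lower, or 4.86% and 1.65% with the block. No test was made over a list.

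Since KIF1A, KIF5C, KIF3C and KIF21B are best known from neurons, markers of neurons were read beside them. Of 12 such markers 4 were tested and 0 passed without the block, and ENO2 was higher with it (limma blocked adjusted p = 0.028). Their summed count was 4262 to 5151 in Dox- and 3384 to 5288 in Dox+ cells, and most of it was UCHL1, SNAP25 and ENO2. ELAVL4 and STMN2 had no read in any library, and GAP43, NEFL and NEFM had at most 3 reads in each library, while TUBB3 was at 213, 278 and 303 against 423, 364 and 344, without overlap and without passing (limma adjusted p = 0.56). SYT1, also among these markers and below the filter, was at 0 in each Dox- library and at 8.46, 3.09 and 6.98 in the Dox+ libraries. The lowest of these lay under the 4.44 that a count of 0 in Dox- 2 allows. Of the Schwann cell and glial markers 3 were tested, and GFAP, the 1 marker that passed, fell from 1481 ± 748 to 85.8 ± 94.8 (n = 3, limma adjusted p = 0.014). PMP22 was higher without overlap, at 4829 ± 145 and 6610 ± 391 (n = 3), and did not pass (limma adjusted p = 0.27). Of the endothelial and leukocyte markers, 3 each were tested and 0 passed. Of 4 tested smooth muscle and pericyte markers ACTA2 fell, and with the block CSPG4 was also lower (blocked limma adjusted p = 0.0094) and DES higher (0.0014). RGS5, below the filter, was at 0 in each Dox- library and at 10.2, 6.18 and 4.65 in the Dox+ libraries. Of 2 tested osteoblast markers 0 passed without the block, and with it both ALPL (0.00031) and SP7 (0.045) were lower. The part of other cell types in the kinesin results was not tested.

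Neighbouring genes were looked at after the kinesin values were seen. In the gene order of RefSeq's ARS-UCD2.0 table, which is not the files' build, the 3 tested genes to either side of KIF1A all failed to pass. The nearest on one side, MAB21L4, was at 2.86 in Dox- and 21.2 in Dox+ cells on average (limma adjusted p = 0.24). Of the 6 around KIF5C, RND3 and RBM43 rose (log2 fold changes 2.06 and 1.42, adjusted p = 0.0031 and 0.013), while MMADHC, which lies between KIF5C and RND3 among tested genes, was at 6538 and 6658 (adjusted p = 0.97). Of the 6 around KIF3C and the 6 around KIF21B, 0 passed. In the same table, KIF1A, KIF3C and KIF21B overlapped no other gene, and KIF5C overlapped a microRNA gene. In all, 16 of the 40 kinesins overlapped another gene, among them KIF14, KIF18B, KIF20A, KIF23, KIF7, KIF27 and KIF9, and with no strand setting known, reads of such partners cannot be told apart.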

How the data were processed

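The deposited values are normalized counts, a signal per Ensembl gene. In each library 100% of the values above 0 were whole multiples of 1 step (within 0.01 read), so reads were recovered from them. The submitters' processing notes list bosTau9 and ARS-UCD1.2 beside FastQC 0.11.3, MultiQC 1.2, STAR 2.5.2b, DESeq2 and Salmon, in no stated order. No source used here gives the strand setting. The authors' deposited comparison table gives a log2 fold change and p-values per gene.

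Groups were compared with limma 3.58.1 (trend, two-sided, under R 4.3.3) on log2(normalized count + 1) for the 13180 genes whose mean reached 10, adjusted after Benjamini and Hochberg over all of them, at a threshold of 0.05. Alternatives were edgeR 4.0.16 (quasi-likelihood) and DESeq2 1.42.0 on the recovered reads, other pseudocounts, filters and scalings, left-out libraries and the replicate number as a block. Same-numbered libraries deviated together (correlations of deviations from group means of 0.65, 0.44 and 0.21). Among differently numbered libraries, Dox- 3 and Dox+ 2 had a correlation of 0.18, close to that of number 3, and the others ran from -0.59 to -0.0034. Deviations sum to 0 within a group, so these negative values follow in part from the positive ones and give no separate evidence of pairing. The numbers were taken to pair the libraries, which the labels do not state, and this is least certain for number 3. The blocked fits and the ratios within pairs rest on this pairing. Replicates of a group differed beyond sampling noise (chi-square per degree of freedom 54.9 to 414). The exact counting intervals of pooled reads and the floors of 3 reads cover counting error only. The limma intervals rest on the spread between libraries.

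Members, roles and lists were chosen with earlier results of these data known. Values in every library were given for kinesins called with or without the block, for the 3 with the highest mean and for the 2 largest changes each way in each role; in other lists the called genes or the 2 with the smallest p were named. Some others were added after their values were seen, such as KIF11, KIF16B, KIF17, KIF21A and SYT1. Levels per transcript length, protein identities and promoter motifs were not analysed here, so levels were not ranked between genes.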

Additional observations from a re-analysis of the deposited data

How the results depend on the processing

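The number of kinesins called was 2, and became 1 with a pseudocount of 5 or a mean of at least 50 (which leaves KIF5C untested), 4 with the replicate block, and 1 to 2 with 1 library left out. KIF1A was called in each of these fits. Calls over all genes, 332 higher and 47 lower, became 542 and 159 in DESeq2, 640 and 218 with the replicate block, 591 and 190 in edgeR with the replicate block, and 139 to 365 and 9 to 72 with 1 library left out, both fewest without Dox+ 3. With the replicate block and pair 1, 2 or 3 left out, which leaves 1 residual degree of freedom per gene, 602, 934 and 917 genes were higher, 188, 276 and 537 lower, and 3, 5 and 4 kinesins were called. The median of the transport kinesins, 0.26, was 0.039 with a mean of at least 50 and 0.19 to 0.39 with 1 library left out. Scaling by library totals moved the median of all genes by 0.11 on the log2 scale and turned small negative values, among them KIF18B 0.093, KIF1C 0.10, KIF3A 0.068, KIF3B 0.098 and KIFC2 0.038. KIF18B was 0.013 in edgeR and 0.0016 in DESeq2, and KIF1C was 0.0012 with TMM scaling, 0.0060 in edgeR and 0.0015 in edgeR with the block. KIF13A was 0.018 in edgeR and 0.0092 in DESeq2. With 1 library left out, values ran from -0.25 to 0.17 for KIF18B, -0.13 to 0.12 for KIF1C, -0.26 to 0.021 for KIF20A, -0.19 to 0.25 for KIF3A, -0.051 to 0.039 for KIF3B and -0.27 to 0.11 for KIFC2. For KIF13A they ran from -0.22 to 0.12. Small positive values turned in these fits too. They ran from -0.14 to 0.22 for KIFC1, -0.14 to 0.38 for KIF18A and -0.21 to 0.37 for KIFC3. For KIF21A the range was -0.32 to 0.37 and for KIF26B -0.087 to 0.55. With the block and a pair left out, the turned values included 0.20 (KIF18B), 0.022 (KIF1C), 0.021 (KIF20A), 0.30 (KIF3A), 0.0017 (KIF3B), 0.098 (KIFC2) and 0.080 (KIF13A). No cause was tested. With all 6 libraries the block added the calls of KIF3C and KIF21B and changed no other kinesin's call. Read depth limits KIF5C, KIF5A and the other genes near 3 reads.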
